A study of Mus musculus with 12 samples.

Results

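Transcripts of 10 genes whose products restrain immune cells at the cell surface were followed across 4 populations sorted from mouse bone marrow. The genes are Cd200, Cd274, Vsir, Nectin2, Cd47, Lgals1, Lgals9, Cd59a, Entpd1 and Nt5e. They were listed by name, as known inhibitory ligands, galectins, complement regulators and adenosine-forming enzymes, with no value threshold, but with earlier results of these data known. All 10 were among the 17362 genes of the deposited table, and all 10 were among the 17086 genes that passed a filter on low values.

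Endothelial and other non-immune cells can hold back immune cells through several surface systems. CD200 binds an inhibitory receptor on myeloid cells, PD-L1 (the product of Cd274) and VISTA (Vsir) hold back T cells, and NECTIN2 is a ligand shared by the activating receptor CD226 and the inhibitory receptors TIGIT and PVRIG. CD47 signals through SIRP alpha on phagocytes to prevent engulfment, galectins bind sugars on surface glycoproteins, and CD59 stops assembly of the complement pore. CD39 (Entpd1) and CD73 (Nt5e) turn extracellular ATP and AMP into adenosine, which acts on adenosine receptors of immune and vessel cells.

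RNA was sequenced from cells of crushed tibia, femur and iliac bone of untreated B6 mice, with 3 libraries per population and 12 in all. Per the labels, biological triplicates came from 6 mice, and neither age nor sex nor pooling is given. All 4 gates are labelled CD31+, Sca1+ and CD45-. CD200-high capillaries were in addition CD200Hi and EMCN-, type H vessels (bone capillaries named for high CD31 and endomucin) were EMCN+, and arterial cells were CD200-. No further antigen is named for the population labelled sinusoidal, so its gate as written contains the other 3. Libraries held 7.33 to 21.6 M listed reads (M, 1e6 reads), and values are log2 CPM (counts per 1e6 reads of a library size scaled by the authors, with 0.5 read added).

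Transcripts of the sort antigens went against some gates. Emcn, which encodes endomucin, averaged 8.26 ± 0.42 log2 CPM in the EMCN- CD200-high libraries (2486 to 4373 reads), 9.02 ± 0.03 in EMCN+ type H libraries, 6.56 ± 0.45 in arterial libraries and 2.08 ± 0.81 in those labelled sinusoidal. Ly6a, which encodes Sca1, averaged 10.19, 8.92 and 9.78 log2 CPM in CD200-high, type H and arterial libraries and 4.05 log2 CPM in those labelled sinusoidal. Ptprc, which encodes the blood cell antigen CD45, averaged 5.38, 3.98, 7.41 and 6.55 log2 CPM in that order of populations, with 1865 to 2924 reads in arterial libraries.

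The libraries labelled sinusoidal stood apart from that label. Cdh5, the endothelial adhesion gene VE-cadherin, averaged 7.76 ± 0.65 log2 CPM in CD200-high libraries, 8.38 ± 0.15 in type H libraries, 7.29 ± 0.22 in arterial libraries, but -0.47 ± 0.95 (SD, n = 3 each) in those labelled sinusoidal, where it had 8 to 24 reads. The 16 pan-endothelial markers summed to 0.436%, 1.09% and 0.209% of reads in CD200-high, type H and arterial libraries and to 0.0284% in those labelled sinusoidal. Of the 16, 15 had their lowest mean in the last, but Erg had its highest there (4.39 log2 CPM, against 2.07, 3.70 and 2.89). Pecam1, which encodes CD31, averaged 8.37, 8.97 and 7.24 log2 CPM in that order, and 6.22 (1507 to 1604 reads) in the libraries labelled sinusoidal. Comparisons with these libraries are therefore given as comparisons with a labelled sample and not with sinusoidal endothelium. Libraries of every population are bulk samples, in which fewer cells of a type and less RNA per cell cannot be told apart.

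Of the 10 genes, 8 differed among the 4 populations (limma F test, adjusted p under 0.05 over all genes), where 37.4% of all genes tested did. Cd274 and Nt5e did not pass (adjusted p = 0.165 and 0.271). The gap between the highest and the lowest population mean was 7.10 log2 units for Nectin2, 4.39 for Cd200, 2.93 for Cd59a and 0.44 for Cd47. The median gap of the 10 genes was 2.55 log2 units, against 2.23 over all genes tested. The highest mean fell in CD200-high libraries for 4 genes (Cd200, Cd274, Lgals1 and Cd59a), in arterial libraries for 3 (Cd47, Vsir and Nt5e), in type H for 2 (Nectin2 and Entpd1) and in those labelled sinusoidal for 1 (Lgals9).

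Lgals1 and Cd59a were called higher in CD200-high than in each of the other 3 populations (adjusted p under 0.05 in all 3 comparisons), which held for 1.57% of all genes tested. Cd200 was too, which the gate fixes. Nectin2 was called higher in type H than in each of the others (2.89% of all genes), and Lgals9 was called higher in the libraries labelled sinusoidal than in each of the others (1.29% of all genes). Lgals1 was called lower in type H than in each of the others (2.22% of all genes). Cd200, Cd59a and Nectin2 were called lower in the libraries labelled sinusoidal than in each of the others (4.86% of all genes). Vsir and Entpd1 also had their lowest means there but were not called in all 3 comparisons. Per kilobase of exon, Lgals1 ranked highest of the 10 genes in CD200-high (9.92 ± 0.32 log2 CPM per kb), followed by Cd200 (8.08 ± 0.02) and Cd59a (7.31 ± 0.24). Lgals1 also ranked highest in type H (7.15 ± 0.06) and arterial libraries (8.72 ± 0.10), and Lgals9 ranked highest in those labelled sinusoidal (8.79 ± 0.21 log2 CPM per kb).

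**Figure D1:**
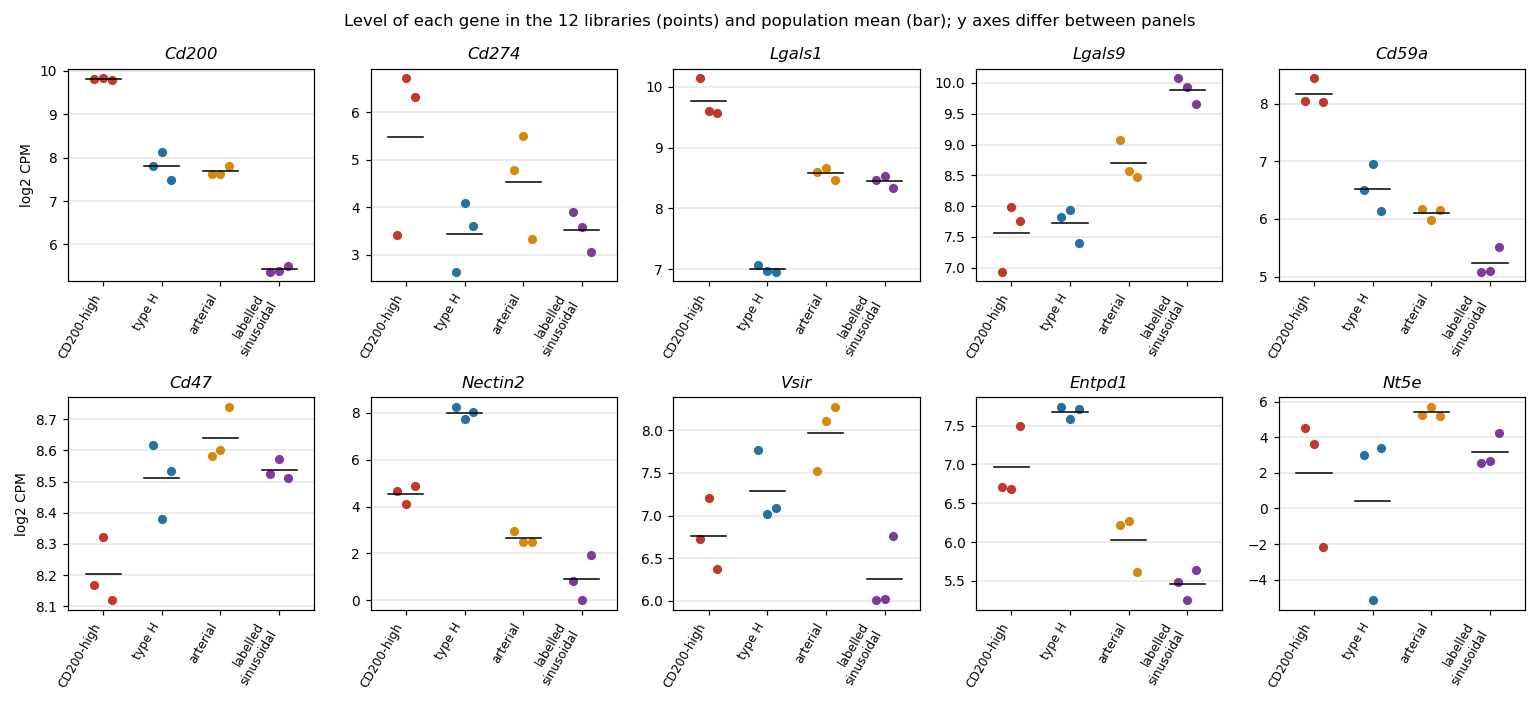
Level of each of the 10 genes in log2 CPM (y axis, scaled separately in each panel) in the 3 libraries of each population (points, x axis) with the population mean (bar). Cd200 lies between 9.80 and 9.83 in CD200-high libraries and between 5.38 and 5.51 in those labelled sinusoidal, while Nt5e falls to -2.18 and -5.17 in 1 CD200-high and 1 type H library.

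Cd200 (chromosome 16, minus strand) encodes an antigen of the sort, so its level checks the sort and is not a finding. Its level was 899, 909 and 890.2 CPM in the CD200-high libraries, 223, 279 and 179.8 CPM in type H, 196, 198 and 224 CPM in arterial libraries and 41.6, 41.8 and 45.6 CPM in those labelled sinusoidal. The CD200-high values stood above all others and varied little (SD 0.02 log2 units), and the labelled sinusoidal values stood below all others. Arterial cells were gated CD200-, yet their Cd200 transcript was 4.78-fold above that of the libraries labelled sinusoidal (log2 difference 2.26 ± 0.16, SE; limma adjusted p = 6.21e-06). Type H and arterial libraries overlapped, with a log2 difference of 0.12 whose 95% interval ran from -0.23 to 0.47, and the sign turned without type H replicate 2 (-0.039).

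Cd274, which encodes PD-L1, was the gene whose replicates spread most among those well above the detection floor. It had 3.40, 6.72 and 6.33 log2 CPM in CD200-high libraries, 2.64, 4.09 and 3.59 log2 CPM in type H libraries, 4.77, 5.49 and 3.33 log2 CPM in arterial libraries and 3.90, 3.57 and 3.05 log2 CPM in those labelled sinusoidal. CD200-high replicate 1 (114 reads) lay within the range of the other populations, while replicates 2 and 3 lay above every library outside CD200-high. The CD200-high minus type H difference was 2.04 ± 0.83 log2 units with a 95% interval of 0.23 to 3.85 and did not pass (adjusted p = 0.138), nor did that from the libraries labelled sinusoidal (1.98, interval 0.17 to 3.79, adjusted p = 0.0964) or from arterial libraries (0.95, interval -0.86 to 2.76, adjusted p = 0.504). Without CD200-high replicate 1 the difference from type H was 3.08 (adjusted p = 0.0116) and that from the libraries labelled sinusoidal 3.01 (adjusted p = 0.00646), so this library decided both calls. The annotation places an opposite-strand gene model over 14.1% of the exon bases of Cd274, and whether counting used strand is not given in the sources used here. Transcripts of other genes hold 9.22% of the 75-base windows of Cd274, the largest share among the 10 genes.

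Vsir, which encodes VISTA, a checkpoint protein first known from blood cells, was highest in arterial libraries. It had 105, 147 and 82.5 CPM in CD200-high libraries, 219, 129 and 136 CPM in type H libraries, 184, 276 and 309 CPM in arterial libraries and 64.1, 64.7 and 108 CPM in those labelled sinusoidal. Arterial values stood above all CD200-high and all labelled sinusoidal values and overlapped type H. The CD200-high minus arterial difference was -1.20 ± 0.31 log2 units (adjusted p = 0.0256). Arterial libraries exceeded those labelled sinusoidal 3.27-fold (log2 difference 1.71 ± 0.31, adjusted p = 0.00405), and type H exceeded them by 1.03 ± 0.31 (adjusted p = 0.0264). The difference between CD200-high and type H was -0.53 (interval -1.20 to 0.15, adjusted p = 0.311).

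The CD200-high against arterial call of Vsir was lost without CD200-high replicate 1 or 3 or arterial replicate 2 or 3 (adjusted p of 0.0636 to 0.0958), and the type H call against the libraries labelled sinusoidal was lost without type H replicate 1 or labelled sinusoidal replicate 1 or 2 (0.0934 to 0.103). Macrophages also express VISTA, and 7 of 8 macrophage markers were in the table. Their sum took 0.00424% to 0.0153% of reads in CD200-high libraries, 0.0420% to 0.0564% in type H libraries, 0.0668% to 0.141% in arterial libraries and 0.0163% to 0.0214% in those labelled sinusoidal. The type H sum came mostly from Mrc1 (8.71 log2 CPM). Without Mrc1 the other 6 took 0.00326% to 0.0134% in CD200-high libraries, 0.00334% to 0.0109% in type H libraries, 0.0650% to 0.135% in arterial libraries and 0.0154% to 0.0205% in those labelled sinusoidal, so that type H then lay below the labelled sinusoidal libraries. No macrophage marker was at 0 in all libraries of a population. By limma, 3 of the 7 were called lower in CD200-high libraries than in arterial ones (adjusted p under 0.05), and 5 were called with voom. The 8 neutrophil markers took 0.546% to 0.965% of reads in CD200-high libraries, 0.413% to 0.712% in type H libraries, 2.001% to 3.02% in arterial libraries and 0.619% to 1.05% in those labelled sinusoidal. All 8 were called lower in CD200-high libraries than in arterial ones, and 7 were called higher in arterial libraries than in those labelled sinusoidal. Their part in the Vsir result was not tested.

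Nectin2 (chromosome 7, minus strand), an adhesion molecule of cell junctions, had the widest range of the 10 genes. It had 24.95, 17.2 and 29.4 CPM in CD200-high libraries, 304, 215 and 263 CPM in type H libraries, 7.74, 5.53 and 5.53 CPM in arterial libraries and 1.73, 0.972 and 3.80 CPM in those labelled sinusoidal. The 4 populations did not overlap, in the order type H, CD200-high, arterial and labelled sinusoidal. CD200-high lay 3.47 ± 0.49 log2 units below type H (11.1-fold lower, adjusted p = 0.000706) and 1.90 ± 0.49 above arterial libraries (3.74-fold higher, adjusted p = 0.0267). Type H lay 41.5-fold above arterial libraries (log2 difference 5.37 ± 0.49, adjusted p = 4.18e-05) and 137-fold above those labelled sinusoidal (7.10 ± 0.49, adjusted p = 1.32e-06), where the gene had 24 to 78 reads.

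The smaller Nectin2 calls lay near the threshold. The arterial difference from the libraries labelled sinusoidal was 1.73 ± 0.49 (adjusted p = 0.047), and leaving out any library other than CD200-high replicate 2 or labelled sinusoidal replicate 3 raised its adjusted p to between 0.0524 and 0.151, with differences of 1.26 to 1.81. The CD200-high against arterial call was lost without CD200-high replicate 1 or 3 or arterial replicate 2 or 3 (0.0656 to 0.0765), with differences of 1.74 to 1.85. An opposite-strand gene model covers 3.86% of the exon bases of Nectin2. Of the 16 pan-endothelial markers 15 had their highest mean in type H as well, but of the 8 mural markers only Kcnj8 and Abcc9 did. The 16 pan-endothelial genes ranged over 0.303% to 0.590% of reads in CD200-high libraries, 1.09% to 1.10% in type H libraries, 0.190% to 0.248% in arterial libraries and 0.0277% to 0.0292% in those labelled sinusoidal, which is the order of the Nectin2 levels. By limma, 5 of the 16 were called lower in CD200-high libraries than in those of type H (adjusted p under 0.05). With voom, 14 of the 16 were called between these populations. The 8 mural genes ranged over 0.0224% to 0.0335%, 0.238% to 0.273%, 0.0125% to 0.0165% and 0.00358% to 0.00579% in the same order of populations. In type H the mural sum came mostly from Kcnj8 and Abcc9 (10.59 and 10.06 log2 CPM). Rgs5, Acta2 and Cspg4 had their lowest means there (-2.53, -2.57 and -4.36 log2 CPM), the pericyte gene Cspg4 had at most 2 reads per type H library, and Myh11, a smooth muscle gene, had no read in the libraries labelled sinusoidal. Their part in the Nectin2 result was not tested.

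Cd47, the signal that stops engulfment through SIRP alpha, was the most even of the 10 genes. It had 288, 320.1 and 278 CPM in CD200-high libraries, 392.5, 333 and 371 CPM in type H libraries, 383, 388 and 427 CPM in arterial libraries and 368, 381 and 365 CPM in those labelled sinusoidal. All CD200-high values lay below all values of the other populations, by small amounts. CD200-high was 1.35-fold lower than arterial libraries (log2 difference -0.44 ± 0.11, adjusted p = 0.0264) and 1.26-fold lower than those labelled sinusoidal (-0.33 ± 0.11, adjusted p = 0.0454), and the difference from type H did not pass (-0.31, interval -0.55 to -0.06, adjusted p = 0.102).

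Both Cd47 calls lay near the threshold. The median difference over all genes was -0.22 in both comparisons. Minus that median, Cd47 differed by -0.21 from arterial libraries and by -0.11 from those labelled sinusoidal. With the mouse number as a block, the difference from the libraries labelled sinusoidal had an adjusted p of 0.0613. That call was also lost without any single library other than CD200-high replicate 2 or type H replicate 2 (adjusted p of 0.0509 to 0.129), and the call against arterial libraries was lost without CD200-high replicate 1 or 3 or any 1 arterial library (0.0517 to 0.0926).

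Lgals1 (chromosome 15), encoding galectin-1, a secreted lectin that binds surface glycans of T cells, was highest in CD200-high and lowest in type H. It had 1130.2, 777 and 764 CPM in CD200-high libraries, 134, 125 and 125 CPM in type H libraries, 386, 407 and 353 CPM in arterial libraries and 356, 372 and 324 CPM in those labelled sinusoidal. Only arterial libraries and those labelled sinusoidal overlapped. CD200-high was 2.29-fold above arterial libraries (log2 difference 1.20 ± 0.15, adjusted p = 0.000738) and 2.50-fold above those labelled sinusoidal (1.32 ± 0.15, adjusted p = 7.39e-05). Type H was 2.99-fold below arterial libraries (-1.58 ± 0.15, adjusted p = 5.77e-05) and 2.74-fold below those labelled sinusoidal (-1.45 ± 0.15, adjusted p = 2.99e-05). Arterial libraries and those labelled sinusoidal differed by 0.13 (interval -0.21 to 0.46, adjusted p = 0.700).

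Summed stromal and bone markers followed the same order as Lgals1. Of the 12 genes, 9 had their highest mean in CD200-high libraries, and Lepr, Pdgfrb and Cxcl12 had theirs in arterial libraries. Lepr was lowest in CD200-high libraries (4.05 log2 CPM, against 6.89 in type H). The 12 genes summed to 7.19% to 9.77% of reads in CD200-high libraries, 0.103% to 0.348% in type H libraries, 1.62% to 2.23% in arterial libraries and 0.645% to 1.22% in those labelled sinusoidal. None of the 12 was at 0 in all libraries of a population, and Sp7, a transcription factor of osteoblasts, had no read in 1 type H library. Of the 12, 9 were called higher and 1 lower in CD200-high libraries than in those of type H, and 3 were called higher and 2 lower than in arterial libraries. Serpinf1, Car3 and the collagen gene Col1a2 were the genes whose levels followed Lgals1 most closely (r = 0.986, 0.975 and 0.975 over 12 libraries). The part of stromal and bone transcripts in the Lgals1 result was not tested, nor was their part in the Cd200 and Cd59a results.

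Lgals9, encoding galectin-9, a ligand of the T cell receptor TIM-3, was highest in the libraries labelled sinusoidal and, like Lgals1, lower in type H than in arterial libraries. It had 123, 254 and 217 CPM in CD200-high libraries, 227, 246 and 169 CPM in type H libraries, 537, 382 and 356 CPM in arterial libraries and 1079.8, 974 and 807 CPM in those labelled sinusoidal. CD200-high and type H overlapped, with a difference of -0.16 (interval -0.74 to 0.42, adjusted p = 0.747) that was 0.15 without CD200-high replicate 1. CD200-high lay 2.21-fold below arterial libraries (log2 difference -1.14 ± 0.26, adjusted p = 0.0155) and 5.01-fold below those labelled sinusoidal (-2.32 ± 0.26, adjusted p = 6.72e-05). Type H lay 0.98 ± 0.26 log2 units below arterial libraries (adjusted p = 0.0213) and 2.16 ± 0.26 below those labelled sinusoidal (adjusted p = 9.07e-05), and arterial libraries lay 1.18 ± 0.26 below those labelled sinusoidal (adjusted p = 0.0146).

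The 3 Lgals9 comparisons that involve arterial libraries were lost with single libraries left out: the CD200-high one without arterial replicate 1 (adjusted p = 0.0677), the type H one without arterial replicate 1 or type H replicate 3 (0.0875 and 0.0783), and the labelled sinusoidal one without arterial replicate 2 or 3 or labelled sinusoidal replicate 1 or 2 (0.0524 to 0.0696). Summed markers of B lineage cells and of megakaryocytes followed the order of the Lgals9 levels from arterial to labelled sinusoidal libraries. Ms4a1, a B lineage marker, had its highest mean in arterial libraries. The 8 B and plasma cell genes summed to 0.0130% to 0.0225% of reads in CD200-high libraries, 0.00910% to 0.0169% in type H libraries, 0.111% to 0.255% in arterial libraries and 0.660% to 0.739% in those labelled sinusoidal, and 6 of the 8 were called lower in CD200-high than in the labelled sinusoidal libraries. Jchain, a plasma cell gene, had no read in CD200-high libraries, 233, 0 and 0 reads in type H libraries, 0, 1718 and 0 reads in arterial libraries and 2, 1557 and 0 reads in those labelled sinusoidal. The 8 megakaryocyte and platelet genes summed to 0.00372% to 0.0126%, 0.00478% to 0.00837%, 0.0568% to 0.191% and 0.344% to 0.473% in the same order of populations. Cd79b, a subunit of the B cell receptor, was among the 3 genes that followed Lgals9 most closely (r = 0.971), after Trp53inp1 (0.973) and Ucp2 (0.972). The part of these cells in the Lgals9 result was not tested.

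Cd59a (chromosome 2, plus strand), the inhibitor of the complement pore, had 263, 348 and 260.1 CPM in CD200-high libraries, 90.7, 123 and 70.0 CPM in type H libraries, 72.3, 63.3 and 71.5 CPM in arterial libraries and 34.0, 34.2 and 45.9 CPM in those labelled sinusoidal. CD200-high stood above and the labelled sinusoidal libraries below all others, and type H and arterial libraries overlapped (difference 0.42, interval -0.09 to 0.93, adjusted p = 0.235). CD200-high was 4.17-fold above arterial libraries (log2 difference 2.06 ± 0.23, adjusted p = 0.000386) and 7.64-fold above those labelled sinusoidal (2.93 ± 0.23, adjusted p = 4.91e-06). Type H was 2.45-fold above the labelled sinusoidal libraries (1.29 ± 0.23, adjusted p = 0.00144). Arterial libraries exceeded them by 0.87 ± 0.23 (adjusted p = 0.035), which had an adjusted p of 0.054 with the mouse number as a block and was lost without any 1 arterial library or labelled sinusoidal replicate 1 or 2 (0.0698 to 0.120). The related gene Cd59b shares 1.73% of the 75-base windows of the Cd59a transcript. Across the 12 libraries Cd59a followed Ctnnb1 and Cd200 most closely (r = 0.968 and 0.960).

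Entpd1, encoding CD39, which removes ATP and ADP at the vessel wall, had 104, 103 and 180.2 CPM in CD200-high libraries, 214, 192 and 209 CPM in type H libraries, 74.3, 77.1 and 48.7 CPM in arterial libraries and 44.9, 38.0 and 49.9 CPM in those labelled sinusoidal. Type H stood above all other libraries, CD200-high above arterial and labelled sinusoidal libraries, and the last pair overlapped. Type H was 3.13-fold above arterial libraries (log2 difference 1.65 ± 0.26, adjusted p = 0.000945) and 4.65-fold above those labelled sinusoidal (2.22 ± 0.26, adjusted p = 5.79e-05). CD200-high was 2.84-fold above those labelled sinusoidal (1.50 ± 0.26, adjusted p = 0.00108) and 0.93 ± 0.26 log2 units above arterial libraries (adjusted p = 0.0337).

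The last call had an adjusted p of 0.054 with the mouse number as a block and was lost without CD200-high replicate 3 or arterial replicate 1 or 3 (0.0592 to 0.122). CD200-high minus type H was -0.71 (interval -1.27 to -0.16) with an adjusted p of 0.0932, although the groups did not overlap, and passed without CD200-high replicate 3 (-0.98, adjusted p = 0.019). The endothelial antigen gene Pecam1 followed Entpd1 most closely (r = 0.975), and Entpd1 followed Nectin2 at r = 0.955. The pan-endothelial sums given with Nectin2 have the order of the Entpd1 levels too, and their part in it was not tested.

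Nt5e, encoding CD73, which makes adenosine from AMP, was near the detection floor in single libraries. It had 245, 179 and 1 read in CD200-high libraries, 154, 0 and 162 reads in type H libraries, 650, 835 and 349 reads in arterial libraries and 106, 156 and 385 reads in those labelled sinusoidal. The arterial libraries, at 38.7, 51.9 and 37.1 CPM, stood above all others, at 0 to 22.6 CPM. No comparison passed in the fit over 12 libraries, and CD200-high replicate 3 (-2.18 log2 CPM) and type H replicate 2 (-5.17 log2 CPM) lay far below their groups. Type H minus arterial was -4.99 with an interval of -9.67 to -0.32 (adjusted p = 0.124, and 0.0436 with voom), and CD200-high minus arterial was -3.41 with an interval of -8.08 to 1.27 (adjusted p = 0.336). Arterial minus labelled sinusoidal was 2.24 (adjusted p = 0.601, and 0.0184 with only the 2 populations in the fit). Without type H replicate 2 the CD200-high minus type H difference of 1.59 turned to -1.20, and without CD200-high replicate 3 the difference from the libraries labelled sinusoidal of -1.17 turned to 0.92.

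Set against the background of each comparison, 4 of the 10 genes were called between CD200-high and type H (3 higher, 1 lower), where 13.0% of all genes were (6.66% higher, 6.35% lower). The numbers were 8 of 10 between CD200-high and arterial libraries (5 higher, 3 lower), beside 12.9% of all genes (4.75% higher, 8.15% lower), and 7 of 10 between CD200-high and those labelled sinusoidal (5 higher, 2 lower), beside 28.7% (14.1% higher, 14.6% lower). Between type H and arterial libraries 4 of 10 were called (2 higher, 2 lower), beside 20.7% (7.96% higher, 12.7% lower), and between type H and those labelled sinusoidal 7 of 10 (5 higher, 2 lower), beside 28.6% (13.9% higher, 14.6% lower). Between arterial libraries and those labelled sinusoidal 5 of 10 were called (4 higher, 1 lower), beside 10.2% (8.09% higher, 2.14% lower). These counts hold Cd200, whose difference from CD200-high libraries the gate fixes. Over the other 9 genes, 3, 7 and 6 were called between CD200-high and type H, arterial and labelled sinusoidal libraries, 4 and 6 between type H and the last 2, and 4 between arterial libraries and those labelled sinusoidal. The count for CD200-high against arterial libraries dropped to 4 or 5 without CD200-high replicate 1 or 3 or any 1 arterial library, and that for arterial libraries against those labelled sinusoidal to 2 or 3 without any 1 arterial library or labelled sinusoidal replicate 1 or 2.

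The median difference of the 10 genes was 0.71 log2 units for CD200-high minus type H, beside -0.05 over all genes, 0.94 for CD200-high minus arterial libraries, beside -0.22, and 1.41 for CD200-high minus those labelled sinusoidal, beside -0.22. It was -0.40 for type H minus arterial libraries, beside -0.20, 0.50 for type H minus those labelled sinusoidal, beside -0.20, and 0.95 for arterial libraries minus those labelled sinusoidal, beside -0.02. Without Cd200 the 6 medians were -0.16, 0.93, 1.32, -0.68, -0.03 and 0.87 in the same order, so that for CD200-high minus type H and for type H minus labelled sinusoidal the sign turned. Comparisons share libraries, so their counts are not independent of each other. The shares of all genes called in each comparison are also the background for the counts of marker genes above. The groups did not overlap for 6, 9 and 7 of the 10 genes between CD200-high and type H, arterial and labelled sinusoidal libraries, beside 30.9%, 32.2% and 46.5% of all genes. They did not overlap for 5 genes between type H and arterial libraries (40.0% of all genes), 7 between type H and those labelled sinusoidal (46.8%) and 7 between arterial libraries and those labelled sinusoidal (39.5%). Directions follow the library scaling of the deposited values, with no all-gene median subtracted. Minus that median, Cd47 turned sign for type H minus arterial libraries (0.07). For type H minus those labelled sinusoidal, Cd47 and Cd274 turned sign (0.18 and 0.14). These differences were not called in the main fit. After quantile normalization both Cd47 differences were called lower in type H (-0.42 and -0.31, limma adjusted p = 0.0147 and 0.0434). Minus the all-gene median they were then -0.50 and -0.19. Setting the median of the pan-endothelial genes equal in all populations moves the all-gene median difference to -6.60 for type H minus labelled sinusoidal libraries and to 1.06 for CD200-high minus type H. It turns 29 of the 60 differences, while a difference minus the all-gene median is the same with and without this step.

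**Figure D2:**
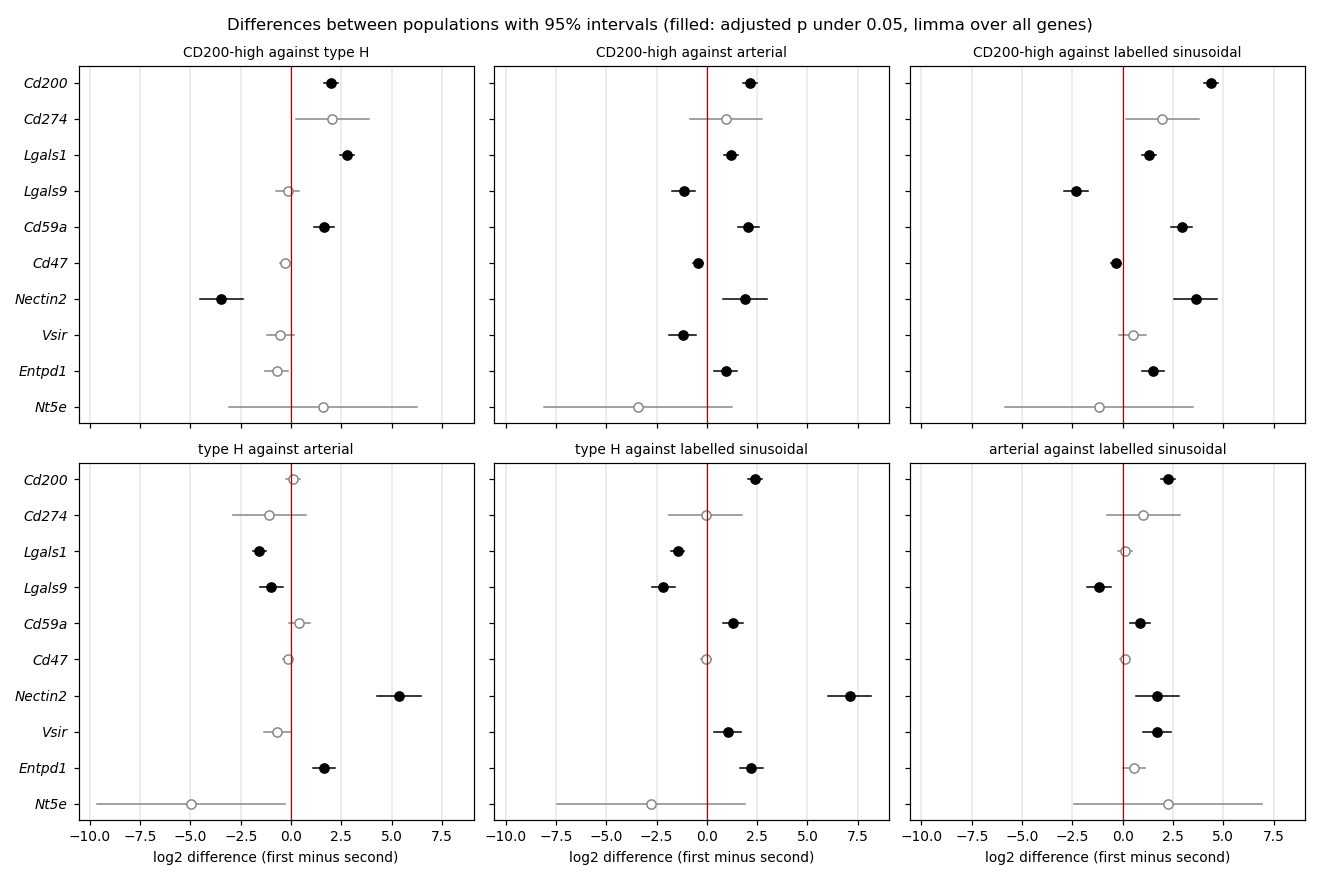
Log2 difference (x axis, first population minus second) of each of the 10 genes in the 6 comparisons, with 95% intervals; filled points have an adjusted p under 0.05 in limma over all genes. Nectin2 lies at 7.10 for type H against the labelled sinusoidal libraries, Cd47 stays within 0.44 of 0 throughout, and Cd274 and Nt5e have no filled point. Under a scaling that sets pan-endothelial genes equal, 29 of the 60 differences change sign.

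Upstream sequence is shown for Cd200 and Cd59a, whose levels moved together over the libraries (r = 0.960), and for Nectin2 and Lgals9, which were highest in type H and in the labelled sinusoidal libraries. Each window holds the 250 bases before a transcript start, from RefSeq on GRCm38.p6, and reads 5′ to 3′ on the strand of the gene. Of the 10 genes, 9 matched, all but Lgals1, with 11 windows. Windows lie at chr16:45409054-45409303 (minus strand) for Cd200, chr2:104095551-104095800 (plus strand) for Cd59a, chr7:19749574-19749823 (minus strand) for Nectin2 and chr11:78984925-78985174 (minus strand) for Lgals9. Capitals mark matches, on either strand, to the ETS motif CCGGAA, the KLF motif CCACCC, the STAT motif TTCNNNGAA or the interferon motif, which has the letters GAAA, any 2 bases and GAAA again.
Cd200: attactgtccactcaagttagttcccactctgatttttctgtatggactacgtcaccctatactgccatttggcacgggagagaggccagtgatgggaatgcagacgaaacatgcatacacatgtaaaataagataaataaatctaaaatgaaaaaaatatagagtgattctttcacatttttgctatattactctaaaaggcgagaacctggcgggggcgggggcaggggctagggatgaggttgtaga
Cd59a: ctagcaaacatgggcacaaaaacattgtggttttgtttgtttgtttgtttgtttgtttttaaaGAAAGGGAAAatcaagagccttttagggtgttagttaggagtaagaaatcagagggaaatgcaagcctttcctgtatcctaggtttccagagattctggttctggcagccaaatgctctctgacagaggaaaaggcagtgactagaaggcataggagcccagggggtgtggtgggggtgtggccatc
Nectin2: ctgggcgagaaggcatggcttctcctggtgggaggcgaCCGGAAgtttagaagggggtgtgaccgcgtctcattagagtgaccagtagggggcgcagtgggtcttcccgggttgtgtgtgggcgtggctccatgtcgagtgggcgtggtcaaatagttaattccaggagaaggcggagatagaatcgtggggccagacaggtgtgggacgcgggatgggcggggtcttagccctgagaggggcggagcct
Lgals9: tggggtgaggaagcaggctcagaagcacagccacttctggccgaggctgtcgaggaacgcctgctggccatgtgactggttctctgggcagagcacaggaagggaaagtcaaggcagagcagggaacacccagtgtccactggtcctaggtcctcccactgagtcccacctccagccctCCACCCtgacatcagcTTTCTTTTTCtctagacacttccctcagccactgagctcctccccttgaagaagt

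The ETS letters stood in the windows of 2 of the 9 genes, Nectin2 (212 bases before the start) and Cd47, and in 12.03% of all 32851 windows of this length. The interferon letters stood in those of Cd59a (187 bases before the start) and Lgals9 (55 bases before), and in 2.98% of all windows. The KLF letters stood in those of Lgals9 (71 bases before the start), Cd274 and Vsir, and in 28.08% of all windows. No window of the 9 genes held the STAT letters, which 7.02% of all windows held. The Cd200 window held none of the 4 motifs. A match describes letters only, and the samples carry no measurement of binding.

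Among 12 receptors and ligands of the 10 proteins, 7 were in the table and 5 of these differed among the populations, beside 37.4% of all genes tested. Thbs1, encoding thrombospondin-1, a secreted ligand of CD47, averaged 9.49 ± 0.49 log2 CPM in CD200-high libraries, 3.70 ± 0.61 in type H libraries, 7.93 ± 0.31 in arterial libraries and 7.80 ± 0.64 in those labelled sinusoidal. It was 55.6-fold higher in CD200-high libraries than in those of type H (log2 difference 5.80 ± 0.38, adjusted p = 3.73e-06) while Cd47 itself moved little. Sirpa, the CD47 receptor, was highest in type H, with 5.49 ± 0.62 log2 CPM in CD200-high libraries, 9.16 ± 0.18 in type H libraries, 7.24 ± 0.95 in arterial libraries and 4.95 ± 0.28 in those labelled sinusoidal, and was 12.7-fold lower in CD200-high libraries than in those of type H (adjusted p = 0.000159). Selplg, which encodes PSGL-1, a partner of VISTA, averaged 6.84 ± 0.44 and 6.86 ± 0.45 log2 CPM in CD200-high and type H and 9.10 ± 0.17 and 9.01 ± 0.17 in arterial and labelled sinusoidal libraries. Cd226, the activating receptor for NECTIN2 on T and NK cells, had at most 1 read in each CD200-high and 2 reads in each type H library, against 541, 207 and 39 reads in arterial libraries and 1780, 885 and 533 reads in those labelled sinusoidal. Cd200r1, the CD200 receptor of myeloid cells, had 0, 0 and 31 reads in CD200-high libraries, 0, 102 and 0 reads in type H libraries, 52, 80 and 32 reads in arterial libraries and 59, 143 and 107 reads in those labelled sinusoidal, and did not pass (F test adjusted p = 0.155).

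Of these 7 genes, 1 was called higher and 1 lower in CD200-high libraries than in those of type H, 1 was called higher and 3 lower than in arterial libraries, and 1 was called higher and 2 lower than in those labelled sinusoidal. Over all genes, 6.66% were called higher and 6.35% lower against type H, 4.75% and 8.15% against arterial, and 14.1% and 14.6% against labelled sinusoidal libraries. The median difference of the 7 genes was 0.22, -3.16 and -0.97 log2 units in these 3 comparisons, beside -0.05, -0.22 and -0.22 over all genes.

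Of 12 other ligands of the B7 and nectin families, 10 were in the table and 4 differed among the populations, near the 37.4% of all genes tested. Between CD200-high and type H, 0 were called by limma or with voom, and 2 had an unadjusted p under 0.05. Limma called 13.0% of all genes there. Cd86, a costimulatory ligand of antigen-presenting cells, had no read in CD200-high and at most 3 per type H library, against 114, 715 and 173 reads in arterial libraries and 95, 62 and 45 reads in those labelled sinusoidal. Icosl, the ligand of the T cell receptor ICOS, had 0, 111 and 0 reads in CD200-high libraries, 17, 1 and 0 in type H libraries, 309, 148 and 158 in arterial libraries and 51, 65 and 26 in those labelled sinusoidal. Cd276, encoding the B7 relative B7-H3, averaged 5.96 ± 0.73 log2 CPM in CD200-high libraries, 4.34 ± 1.54 in type H libraries, 4.61 ± 0.58 in arterial libraries and 1.97 ± 1.14 in those labelled sinusoidal, and was 15.8-fold higher in CD200-high than in the last (adjusted p = 0.00273). Nectin4, an adhesion molecule related to NECTIN2, had 179, 0 and 0 reads in CD200-high libraries, none in type H libraries, 122, 141 and 30 in arterial libraries and 24, 90 and 42 in those labelled sinusoidal. CD200-high was called lower for 1 of the 10 genes against arterial libraries, and called higher for 1 and lower for 1 against those labelled sinusoidal. The shares over all genes were 8.15%, 14.1% and 14.6%.

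Of 7 other galectin genes, counting the galectin-3 binding protein, 5 were in the table and 4 differed among the populations, beside 37.4% of all genes tested. Lgals3, a galectin abundant in myeloid cells, averaged 5.96 ± 0.39 log2 CPM in CD200-high libraries, 5.78 ± 0.88 in type H libraries, 8.01 ± 0.22 in arterial libraries and 5.86 ± 0.62 in those labelled sinusoidal, and was 4.14-fold lower in CD200-high libraries than in arterial ones (adjusted p = 0.00861). Lgals3bp averaged 7.53 ± 0.42, 6.86 ± 0.46, 8.21 ± 0.20 and 6.49 ± 0.27 log2 CPM in CD200-high, type H, arterial and labelled sinusoidal libraries. Lgals8, which encodes a galectin with a pair of sugar-binding domains, averaged 6.16 ± 0.32 in CD200-high and 7.25 ± 0.52 in type H, a 2.12-fold lower level in CD200-high (adjusted p = 0.0257), with 6.55 ± 0.36 in arterial and 6.66 ± 0.16 log2 CPM in labelled sinusoidal libraries. Lgals2 averaged 2.31 ± 0.73, 1.85 ± 0.65, 1.33 ± 0.23 and -2.21 ± 1.25 log2 CPM in the same order of populations. Of the 5 genes, 1 was called lower in CD200-high libraries than in those of type H, 1 was called lower than in arterial ones and 2 were called higher than in those labelled sinusoidal. The shares over all genes were 6.35%, 8.15% and 14.1%. None of the 4 named here had the order of either Lgals1 or Lgals9.

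Of 9 other complement regulators, 8 were in the table and 5 differed among the populations, beside 37.4% of all genes tested. Cd55, the membrane decay-accelerating factor, averaged 4.80 ± 1.25 log2 CPM in CD200-high libraries, 7.76 ± 0.34 in type H libraries, 5.42 ± 0.49 in arterial libraries and 4.67 ± 0.23 in those labelled sinusoidal, and was 7.75-fold lower in CD200-high libraries than in those of type H (adjusted p = 0.00255), the opposite of Cd59a. Its near copy Cd55b had 8, 24 and 7 reads in CD200-high libraries, 146, 175 and 129 reads in type H libraries, 25, 31 and 21 reads in arterial libraries and 15, 36 and 24 reads in those labelled sinusoidal, and reads that fit both genes could have been assigned to either or to neither. Serping1, the C1 inhibitor, averaged 5.94 ± 0.95, 6.72 ± 0.62, 9.49 ± 0.50 and 5.31 ± 0.42 log2 CPM in CD200-high, type H, arterial and labelled sinusoidal libraries, and was 11.8-fold lower in CD200-high libraries than in arterial ones (adjusted p = 0.000799). Clu, encoding clusterin, a fluid-phase inhibitor of the pore, averaged 6.07 ± 0.91, 5.11 ± 1.15, 7.97 ± 0.38 and 7.73 ± 0.21 log2 CPM in that order of populations. Against type H, 2 of the 8 were called lower in CD200-high, against arterial libraries 2 were called lower, and against those labelled sinusoidal 1 was called higher and 1 lower. The shares over all genes were 6.35%, 8.15%, 14.1% and 14.6%.

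Of 12 other genes of ATP and adenosine handling, 9 were in the table and 5 differed among the populations, beside 37.4% of all genes tested. Entpd3, a membrane enzyme related to CD39, had 5230, 5569 and 1931 reads in CD200-high libraries, 0, 3 and 2 reads in type H libraries, 171, 308 and 292 reads in arterial libraries and 421, 216 and 468 reads in those labelled sinusoidal. CD200-high was 20.6-fold above arterial libraries (log2 difference 4.37 ± 0.80, adjusted p = 0.00458), and type H libraries were at or under the floor of 3 reads. Alpl, tissue-nonspecific alkaline phosphatase, a bone enzyme that is also one of the 12 stromal markers, averaged 10.01 ± 0.22, 0.78 ± 2.58, 8.27 ± 0.14 and 6.82 ± 0.52 log2 CPM in CD200-high, type H, arterial and labelled sinusoidal libraries. Slc29a1, the nucleoside transporter ENT1, averaged 7.36 ± 0.42, 8.93 ± 0.16, 7.33 ± 0.15 and 6.57 ± 0.22 log2 CPM in that order, 2.97-fold lower in CD200-high libraries than in those of type H (adjusted p = 0.000465). Adora2a, the adenosine receptor best known for restraining T cells, averaged 2.38 ± 0.23, 5.73 ± 0.51, 3.28 ± 0.59 and 3.58 ± 0.68 log2 CPM and was 10.2-fold lower in CD200-high libraries than in those of type H (adjusted p = 0.00104). Entpd1, Slc29a1 and Adora2a thus had their highest means in type H, and Entpd3 and Alpl in CD200-high. Between CD200-high and type H, 2 of the 9 were called higher and 3 lower, against arterial libraries 1 was called higher and 1 lower, and against those labelled sinusoidal 3 were called higher and none lower. Over all genes the shares were 6.66% and 6.35%, 4.75% and 8.15%, and 14.1% and 14.6%.

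**Figure D3:**
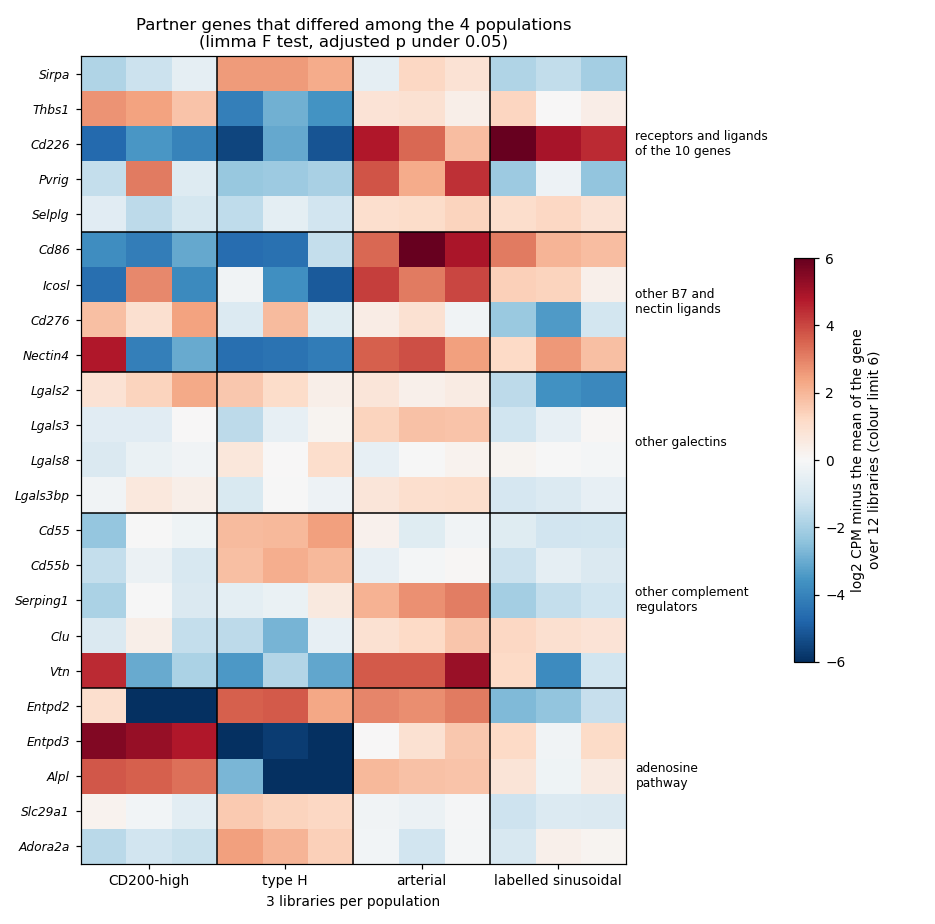
Log2 CPM of the receptors, relatives and pathway genes that differed among the 4 populations, minus the mean of the gene over 12 libraries (colour, limited to 6 on either side of 0); columns are the 3 libraries of each population and rows are grouped by list. Thbs1, Entpd3 and Alpl are high in CD200-high and low in type H, while Sirpa, Cd55 and Adora2a are high in type H.

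Likeness to other genes was described by Pearson's r over the 12 libraries, among genes with a mean of at least 5 log2 CPM, with no test, since libraries of a population share their gate and cell makeup. Cd200 was followed by Tmed3, Fam114a1 and Ppic (r = 0.984, 0.980 and 0.970). Nectin2 was followed by Ralb, Gadd45g and Cmtm3 (0.984, 0.984 and 0.982), and Entpd1, after Pecam1, by Tspan9 and Spns2 (0.974 and 0.970). Vsir was followed by Aldoa, Esm1 and Fbln5 (0.887, 0.886 and 0.883), Cd47 by Gapdh, Cnot6 and Cdk2ap2 (0.918, 0.906 and 0.882), Nt5e by Steap4, Snap23 and Net1 (0.937, 0.916 and 0.897) and Cd274 by Dnpep, Zbtb38 and Zbtb44 (0.799, 0.799 and 0.783). Between members of the set, Cd200 and Lgals9 had the most opposed levels (r = -0.854).

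**Figure D4:**
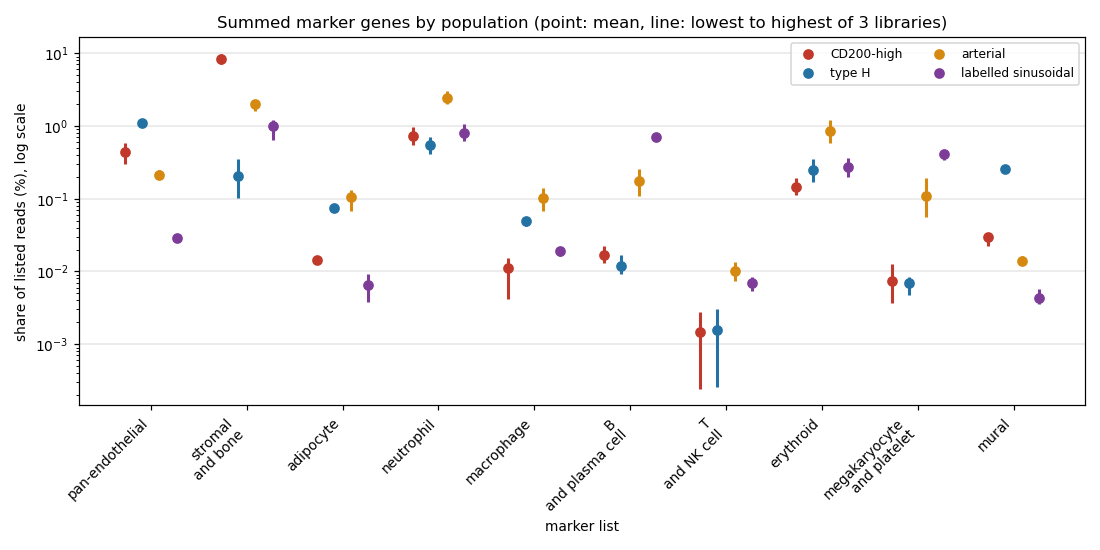
Share of listed reads (percent, log scale) from summed marker genes of 10 cell types (x axis) in each population; points are means and lines run from the lowest to the highest of 3 libraries. Stromal and bone genes hold 8.41% of reads in CD200-high, neutrophil genes 2.44% in arterial libraries, and B and plasma cell genes 0.712% in those labelled sinusoidal.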

How the data were processed

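Values of 12 RNA-seq libraries were read from 1 deposited table of 17362 genes. As deposited by the authors they are log2 CPM on a rescaled library size, after 0.5 was added to each count, and undoing this gave whole reads within 0.01 for 100% of values. The submitters' processing notes list featureCounts, STAR, Trimmomatic, SAMtools, R 4.3 and deepTools, with a human genome build although the samples are mouse. The scaling method and the strand setting are not given in the sources used here. Per-length values used the exons of GENCODE M21.

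The 6 comparisons were fitted in limma 3.58.1 (R 4.3.3) to the deposited log2 values, with a mean-variance trend and no block, over all 12 libraries together. A gene was kept if 3 or more libraries reached 0.63 CPM, equal to 10 reads at the mean library size of 15.9 M, which left 17086 genes and removed 276. Adjusted p is Benjamini-Hochberg over all genes within a comparison, with calls under 0.05. The design had foreseen a pseudocount, which was run as an alternative because the table already holds log2 values. Floors of 3 reads and intervals on reads cover counting error only. The method was tested on simulated data.

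The genes, lists and tests were chosen with earlier results of these data known. All 10 genes were named in every comparison, from each list up to 4 genes with the smallest F test p, and for each of the 10 the 3 genes with the highest r; 1 gene of the complement list is not reported here. Cd200r1 and Cspg4 were added after their values were seen, Cd200r1 as the receptor of CD200 and Cspg4 as a pericyte marker. Labels give mouse numbers 1 to 3 in each population, so same-numbered libraries were treated as paired in an alternative fit with that number as a block. Libraries of the same number had deviations from their population means that correlated at -0.04 to 0.11 (median 0.03, 18 pairs, 9846 genes), against a median of -0.01 and a maximum of 0.04 in 36 pairs of different number, and 10 of 12 libraries correlated best with one of their own number. No library pair held identical values. Replicates differed with a chi-square of 54.5 to 128 per degree of freedom. The p-values set each difference against the spread between these libraries. Since how the 6 mice were divided is not stated, whether that spread is one between separate mice is not known. Marker lists of 10 cell types were summed per library.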

Additional observations from a re-analysis of the deposited data

How the results depend on the processing

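Over 22 alternatives (the mouse number as a block, other filters, a pseudocount of 1 CPM, no trend, voom with TMM, quantile normalization, scaling to listed reads, only the 2 populations compared, each library left out, and, chosen after seeing the data, 9 libraries without those labelled sinusoidal), 24 of the 35 called differences of the 10 genes stayed called, 11 lost the call in at least 1 and 0 turned sign. Of the 25 not called, 8 were called in at least 1. For Nt5e these were type H against arterial (voom) and arterial against labelled sinusoidal (only the 2 populations). For Cd47 they were CD200-high against type H (listed reads) and type H against arterial and labelled sinusoidal libraries (quantile normalization). For Cd274 they were CD200-high against type H and labelled sinusoidal libraries (without CD200-high replicate 1). For Entpd1 it was CD200-high against type H (voom, or without CD200-high replicate 3). The block ended 3 calls, given above with adjusted p of 0.054, 0.0613 and 0.054, and changed no other. Without the libraries labelled sinusoidal, Cd47 and Entpd1 were no longer called between CD200-high and arterial libraries (adjusted p = 0.0705 and 0.058). Of the 10 genes, 8 were called between CD200-high and arterial libraries, against 4 without a trend and 4 with only the 2 populations, and 4 to 8 with 1 library left out. Between arterial and labelled sinusoidal libraries 5 were called, against 2 without a trend, 3 with voom, 3 with listed reads and 2 to 5 with 1 library left out. Calls lost numbered 10 without a trend, 6 with only the 2 populations, 5 with voom, 4 with listed reads, 2 with the pseudocount and 1 after quantile normalization, all among the 11, which are both of Cd47, 3 of Lgals9 (those with arterial libraries), 2 of Vsir (not that between arterial and labelled sinusoidal libraries), 2 of Nectin2, that of Cd59a between arterial and labelled sinusoidal libraries and that of Entpd1 between CD200-high and arterial libraries. The cause was not tested.

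Leaving out 1 library turned the sign of differences that were not called. For CD200-high minus type H, Lgals9 ran from -0.37 to 0.15 and Nt5e from -1.20 to 3.67, and for CD200-high minus labelled sinusoidal Nt5e ran from -2.42 to 0.92. For type H minus arterial Cd200 ran from -0.039 to 0.28, and was -0.083 after quantile normalization. For type H minus labelled sinusoidal, Cd274 ran from -0.39 to 0.33, Cd47 from -0.079 to 0.038 and Nt5e from -4.25 to 0.036. Cd47 was -0.018 for arterial minus labelled sinusoidal with listed reads.

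Equalising the pan-endothelial median between populations moves every gene by construction, so that the all-gene median difference becomes 1.06, -1.40, -5.51, -2.48, -6.60 and -4.13 in the order of the comparisons. A difference minus the all-gene median of its comparison is the same with and without this step. Of the 29 differences that turned sign, 15 had been called, and 13 of these were called the other way. Of the 15, only Entpd1 for CD200-high and for type H minus arterial was not called the other way (limma adjusted p = 0.493 and 0.0516). All 29 are listed here, whether called or not. For CD200-high minus type H they were Lgals9 (0.94), Cd47 (0.80), Vsir (0.58) and Entpd1 (0.39), and for CD200-high minus arterial Cd274 (-0.22) and Entpd1 (-0.24). For CD200-high minus labelled sinusoidal they were Cd200 (-0.90), Cd274 (-3.31), Lgals1 (-3.97), Cd59a (-2.36), Nectin2 (-1.66), Vsir (-4.79) and Entpd1 (-3.79). For type H they were Cd200 (-2.16), Cd59a (-1.86) and Entpd1 (-0.63) against arterial, and Cd200 (-4.02), Cd59a (-5.10), Vsir (-5.37) and Entpd1 (-4.18) against labelled sinusoidal. For arterial minus labelled sinusoidal they were Cd200 (-1.86), Cd274 (-3.09), Lgals1 (-3.99), Cd59a (-3.24), Cd47 (-4.01), Nectin2 (-2.39), Vsir (-2.41), Entpd1 (-3.54) and Nt5e (-1.87). Members called became 5 for CD200-high against arterial, 9 for type H against arterial and 9 for arterial against labelled sinusoidal.

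Over all genes, 2223, 2204, 4902, 3536, 4882 and 1748 were called in the 6 comparisons and 6386 by the F test, and under this shift 4620, 6127, 14863, 12162, 15739 and 13222 were, with 15841 by the F test. With only the 2 populations, 1337 genes were called between CD200-high and type H and 2829 between arterial and labelled sinusoidal libraries. Leaving out arterial replicate 1 or 3 left 1353 or 1397 between CD200-high and arterial libraries, and leaving out arterial replicate 2 or 3 or labelled sinusoidal replicate 2 left 1082, 1019 or 1134 between arterial and labelled sinusoidal libraries. The share of higher calls was 36.8%, 49.1% and 79.1% for CD200-high against arterial, CD200-high against labelled sinusoidal and arterial against labelled sinusoidal libraries, and 24.6%, 35.5% and 69.1% with listed reads; the last was 67.8% with voom and 69.0% after quantile normalization. Under the shift it was 91.9% for CD200-high against type H (51.2% otherwise) and at most 2.28% in the other 5 comparisons. Libraries at or under the floor of 3 reads limit Nt5e, Cd226 and Cd200r1, and 3 libraries per population limit all genes.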
